A study of Mus musculus with 6 samples.

Results

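The 3 wild-type (WT) samples of the series, of 6 samples in all, were described on their own. Each sample was RNA from the spleen of a 1-year-old mouse on the mixed C57BL/6J x SJL/J background, a littermate of the p80HT transgenic mice that make up the other 3 samples and express a mutant form of human NFKB2 in lymphocytes. The cells had been selected with an antibody to B220, the form of CD45 found on B cells, and magnetic beads, so each array read a bulk population rather than a purified subset. The RNA was hybridised to the Affymetrix Mouse Gene 1.0 ST array, which reads each gene with 1 or more sets of probes (probesets). The labels give neither sex nor age for the mice, and the age was taken from the study's methods. The WT arrays were compared with no other group, so no test was made, and the results are levels and their spread over 3 arrays. Of 28853 probesets, 21789 were paired with exactly 1 gene symbol, and these gave 19938 genes, each read at its brightest probeset. Every level is a log2 signal, so that a step of 1 is a doubling, and 3 values in a row stand for WT replicates 1, 2 and 3.

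B cells are the antibody-producing lymphocytes. In the spleen most are resting follicular cells that recirculate through blood and lymph, with a smaller marginal zone population that faces the blood and some plasma cells that secrete antibody. Lineage factors such as Pax5 and Ebf1 keep the B cell programme on, and the antigen receptor on the surface is an immunoglobulin held together with the signalling chains Cd79a and Cd79b.

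A reading of "expressed" needs a level for probes with nothing to bind. For this purpose the 1203 measured chemoreceptor genes (odorant, vomeronasal and trace amine receptors), which spleen cells are not known to use, were taken as the empty reading, and their 95th percentile on each array, 7.54, 7.24 and 7.38, was called the background level. A gene was above background when it exceeded that level on all 3 arrays, and at background when it did so on none. By this rule 11358 genes (57.0%) were above background, 7285 (36.5%) were at background and 1295 were mixed. With the stricter 99th percentile of the same genes, 8403 genes (42.1%) were above on all 3 arrays. A gene's percentile is its place among the 19938 genes on an array, and 1810 genes (9.08%) were in the top 10% on all 3. The shares to set beside each list's counts are thus 57.0% above background, 42.1% at the stricter level and 9.08% in the top 10%. Probesets differ in how well they bind, so a percentile orders signals and does not order amounts of RNA. As a check of the rule, 7 of 23 genes of unrelated tissues (30.4%) were above background, and 2 of the 23 passed the stricter level. Mbp, a myelin gene, read 8.91, 8.98 and 8.98. Whether such signals are empty readings or RNA of these cells was not tested.

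**Figure D1:**
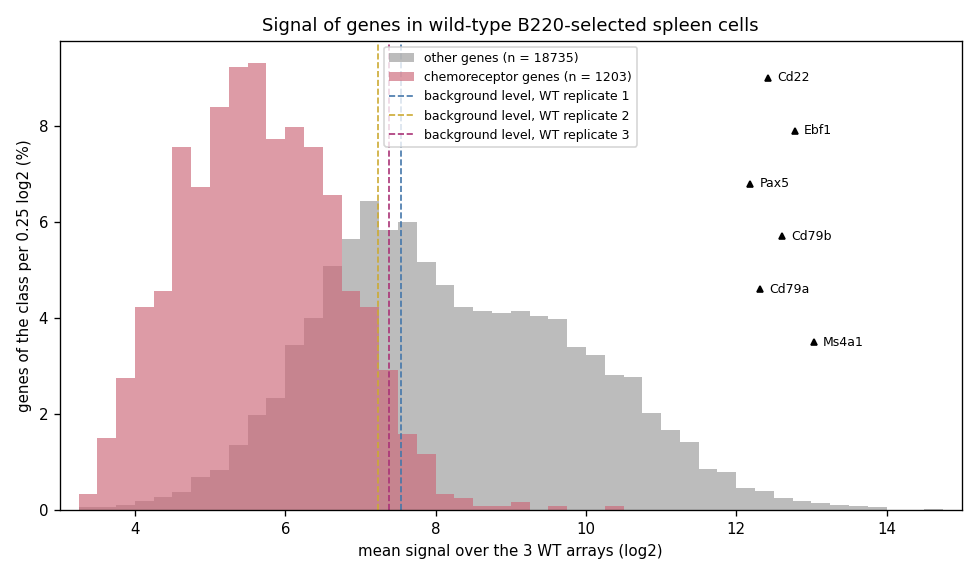
Share of genes (%) per 0.25 log2 step of mean signal over the 3 WT arrays, for 1203 chemoreceptor genes and the 18735 other genes. Dashed lines are the background levels of the 3 arrays, from 7.24 to 7.54, and triangles give the mean signal of the 6 B cell markers (their height has no meaning), all above 12.

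The B cell label fitted the data. All 6 markers of the label were above background, and all were in the top 10% of genes on all 3 arrays. Ms4a1, the gene of CD20, read 12.99, 13.12 and 13.00, at the mean percentile 99.6. Cd79a read 12.10, 12.47 and 12.39, and Cd79b read 12.57, 12.69 and 12.58. Both receptor chains varied by less than 0.4 over the arrays. The lineage factor Pax5 read 12.02, 12.31 and 12.23, and Ebf1, which acts with it, read 12.73, 12.83 and 12.77. Cd22, an inhibitory receptor that binds sialic acid, read 12.32, 12.51 and 12.45. The SDs of the 6 markers lay between 0.05 for Ebf1 and 0.19 for Cd79a.

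The wider list of B cell identity genes stood equally high. All 27 measured members were above background and in the top 10% on all 3 arrays, against 57.0% and 9.08% of all genes, and their median percentile was 99.1. The highest was Ly86, which carries the Toll-like receptor relative Cd180 to the surface, at 13.33, 13.36 and 13.34, followed by Ms4a1 and then by Cd37, a tetraspanin, at 12.96, 13.04 and 13.02. Bank1, a scaffold of the antigen receptor, read 12.84, 13.09 and 12.98. The lowest member was Btk, a kinase of antigen receptor signalling, at 10.68, 10.95 and 10.86, still at the mean percentile 92.6. Fcer2a, the gene of CD23, had the widest range of the list, with 12.10, 12.55 and 12.41. The median SD of the list was 0.07, beside 0.13 for all genes and 0.08 for genes in the top 10% on all 3 arrays.

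Promoter sequence was set beside these levels because Ebf1 and the octamer proteins are textbook regulators of B cell genes. RefSeq (GRCm38.p6) gave 1 or more windows of 250 bases before the start for 15614 measured genes, 21 of them in the identity list. Each window was searched on both strands, and a gene was counted when any of its windows matched. Genes above background had 1.27 windows on average and genes at background 1.17. The Ebf1 motif (TCCC, any 2 bases, GGGA) was found in 1.04% of all windowed genes and in 1 of the 21 identity genes, Cd22. The octamer ATTTGCAT was found in 1.79% of all and in 1 of the 21, Blnk, the adaptor that links the receptor to downstream kinases, which read 11.99, 12.12 and 12.08. These windows are printed because they are the identity promoters that held the Ebf1 motif or the octamer, with the match in capitals. The Cd22 window lies at chr7:30879029-30879278 on the minus strand, with the match 49 to 40 bases before the start. The Blnk window lies at chr19:40994222-40994471, also on the minus strand, with the match 130 to 123 bases before the start.
Cd22: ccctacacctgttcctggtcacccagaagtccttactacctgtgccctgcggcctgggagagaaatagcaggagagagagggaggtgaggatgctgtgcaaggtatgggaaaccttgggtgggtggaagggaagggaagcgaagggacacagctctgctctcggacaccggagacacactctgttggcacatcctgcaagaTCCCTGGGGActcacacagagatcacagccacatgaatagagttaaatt
Blnk: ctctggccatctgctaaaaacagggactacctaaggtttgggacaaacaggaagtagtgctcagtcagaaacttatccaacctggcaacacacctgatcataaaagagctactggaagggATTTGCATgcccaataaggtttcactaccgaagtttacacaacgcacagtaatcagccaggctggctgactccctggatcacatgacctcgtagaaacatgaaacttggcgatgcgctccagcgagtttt
A match is a string of letters and not a shown binding site. Base composition differed between the bands of signal, as the windows averaged 61.4% G and C for genes in the top 10%, 60.0% for genes above background and 49.6% for genes at background, with 53.2% for the identity list. The ETS motif CCGGAAGT was in 6.57% of genes above background and 1.43% of those at background, and TATAAA was in 7.80% and 20.3% of the same classes. In the identity list, the ETS motif was in 0 of 21 genes and TATAAA in 3 of 21 (14.3%). Base composition moved with both of these shares, and its part in them was not tested.

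The signalling chain behind the antigen receptor was read almost throughout. All 31 measured genes of the receptor and its proximal signalling were above background, also at the stricter level, and 24 were in the top 10% on all 3 arrays. Syk, the kinase recruited by the Cd79 chains, read 12.16, 12.29 and 12.24. Cr2, the complement receptor that lowers the receptor's threshold, read 12.68, 12.98 and 12.95, and Ptprc, which encodes CD45 and so B220 itself, read 12.92, 12.99 and 12.91. The lowest member was Lair1, an inhibitory collagen receptor, at 8.65, 8.68 and 8.74. Pirb, an inhibitory receptor for MHC class I, had the widest range, at 9.94, 10.44 and 10.39.

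Among transcription factors, 36 of 38 were above background and 27 were in the top 10%. Rel, an NF-κB subunit, read 13.15, 13.17 and 13.14, a range of 0.03. Spib read 12.47, 12.50 and 12.53, and Foxp1, which marks mature resting cells, read 12.45, 12.52 and 12.50. Nfkb2, the mouse gene whose human counterpart the transgene of the littermates was made from, read 10.79, 10.92 and 10.87 in these WT samples. The 2 factors at background were Gata1, an erythroid factor, at 7.52, 7.22 and 6.87, and Cebpa, a myeloid factor, at 7.00, 7.12 and 7.23. Gata1 also had the widest range of the list.

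Receptors for survival and help signals followed the same picture, with 21 of 23 above background and 15 in the top 10%. Tnfrsf13c, the receptor for the survival factor BAFF, read 12.72, 12.84 and 12.82, and Tlr9, which senses unmethylated DNA, read 12.09, 12.08 and 12.01. Tnfrsf17, the BCMA receptor of plasma cells, read 8.09, 7.80 and 8.34, at the mean percentile 54.4. The mixed members were Tlr4 and Tlr6, with Tlr4 at 7.34, 7.92 and 7.83 and Tlr6 at 7.26, 7.34 and 7.69.

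Antigen presentation gave several of the brightest genes of the arrays. B2m, the light chain of MHC class I, read 13.86, 14.01 and 14.09, and Cd74, the invariant chain of MHC class II, read 13.82, 14.06 and 13.99. H2-Aa and H2-Ab1, the chains of the class II molecule I-A, read 13.83, 13.91 and 13.86, and 13.62, 13.74 and 13.61. Of the list, 15 of 16 genes were above background and 13 were in the top 10%. The exception was H2-Ea, the alpha chain of the class II molecule I-E, which the b and s haplotypes of the parent strains are known not to make, and which read 6.28, 6.49 and 6.45, at background on all 3 arrays. Its partner H2-Eb1 read 12.87, 12.99 and 12.87.

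The subset lists differed in how many members were in the top 10%, from 87.5% of the follicular list to none of the B-1 list. All 8 measured follicular genes were above background and 7 were in the top 10%, at a median percentile of 97.4. Ccr7, which guides cells towards the T cell zone, read 13.10, 13.23 and 13.12, and Klf2, which holds mature cells in recirculation, read 12.33, 12.39 and 12.48. Cd55, a complement regulator, was the lowest and the most variable of the 8, with 10.33, 11.00 and 10.84. All 10 marginal zone genes were above background and 5 were in the top 10%, at a median percentile of 93.4. Notch2, the receptor the marginal zone fate depends on, read 12.11, 12.15 and 12.07, and its target Dtx1 read 11.81, 11.69 and 11.70. S1pr3, a sphingosine phosphate receptor, had the widest range, with 10.53, 9.80 and 9.98, and Cd9 was the lowest, with 8.75, 8.57 and 9.08. Some list members are shared, since Cr2 and Fcer2a stand in the identity list as well. In bulk RNA of this kind, fewer cells of a type and less RNA per cell cannot be told apart.

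Other subset lists sat lower. All 8 B-1 genes were above background, 5 of them at the stricter level, and none was in the top 10%. Cd5, the surface marker of B-1a cells that T cells also carry, read 8.39, 8.81 and 8.60, and Itgam, which myeloid cells carry as well, read 8.44, 8.88 and 9.31, the widest range of the list. Of the 10 germinal centre genes 9 were above background, and Bcl6, the repressor that defines the germinal centre state, was the one in the top 10%, at 10.64, 10.75 and 10.80. Nuggc read 7.41, 7.60 and 7.43 and was mixed. Rgs13, a regulator of chemokine signalling, read 8.34, 8.86 and 8.45.

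Memory and age-associated genes were above background for 10 of 11 members and in the top 10% for 2. Cd86, a ligand of CD28 on T cells, read 12.00, 11.82 and 11.78, and Zbtb20 read 10.87, 11.02 and 10.94. Tbx21, the factor T-bet that marks age-associated B cells, read 9.21, 9.27 and 9.17, and Itgax, the gene of CD11c, read 9.15, 9.22 and 8.88. Il10, a regulatory cytokine, was at background on all 3 arrays, at 6.70, 6.88 and 7.26, and had the widest range of the list.

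Precursor genes ran from the mean percentile 4.6 to 98.9, with a median of 54.1. Of these, 2 were in the top 10%, 1 was mixed and 3 were at background. Cd24a, a surface protein high on immature cells and present on mature ones, read 12.18, 12.35 and 12.29, and Vpreb3 read 10.75, 10.90 and 10.89. The recombinase gene Rag2 read 5.30, 5.12 and 5.29, and Dntt, the enzyme that adds bases at joins, read 6.43, 6.54 and 6.77, both at background. Between these, Igll1, a surrogate light chain gene, read between 7.62 on WT replicate 2 and 8.69 on WT replicate 3, above background but not at the stricter level on all 3 arrays, and it had the widest range. Of the 12 measured members 8 were above background, 4 at the stricter level.

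Plasma cell genes were above background for 12 of 13 members and in the top 10% for 6. Jchain, which joins IgA and IgM into polymers, read 12.41, 12.49 and 12.80, and Mzb1, an endoplasmic reticulum helper of antibody assembly that the marginal zone list holds too, read 12.56, 12.24 and 12.55. Irf4 read 12.18, 12.28 and 12.35. Prdm1, the factor Blimp-1 that drives secretion, read 8.70, 8.72 and 8.62, at the mean percentile 64.1, and Sdc1, the surface marker CD138, read 8.44, 8.59 and 8.87. Txndc5, a disulphide isomerase, read 10.59, 10.67 and 11.10. Fkbp11, another folding enzyme, was at background, with 7.16, 6.89 and 7.14. The plasma cell list held genes from the top of the array down to background.

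Only 3 immunoglobulin constant regions could be read at a probeset of 1 symbol. Igha, the constant region of IgA, read 13.23, 13.44 and 13.55, Ighm, that of IgM, read 12.17, 12.37 and 12.58, and Ighg3, that of IgG3, read 9.55, 10.05 and 10.26. Each was lowest on WT replicate 1 and highest on WT replicate 3, with ranges of 0.32, 0.41 and 0.71. Of all genes 2834 (14.2%) had this order, as had 384 of the 1810 genes in the top 10% on all 3 arrays. The order depended on the probeset, since a second Igha probeset read 12.41, 12.28 and 12.82, lowest on WT replicate 2. Of the other Ighm probesets, one read 11.69, 11.88 and 12.05, in the same order, and another read 12.22, 12.15 and 12.19, highest on WT replicate 1. The other heavy chain isotypes and the light chain constant regions were not analysed here.

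**Figure D2:**
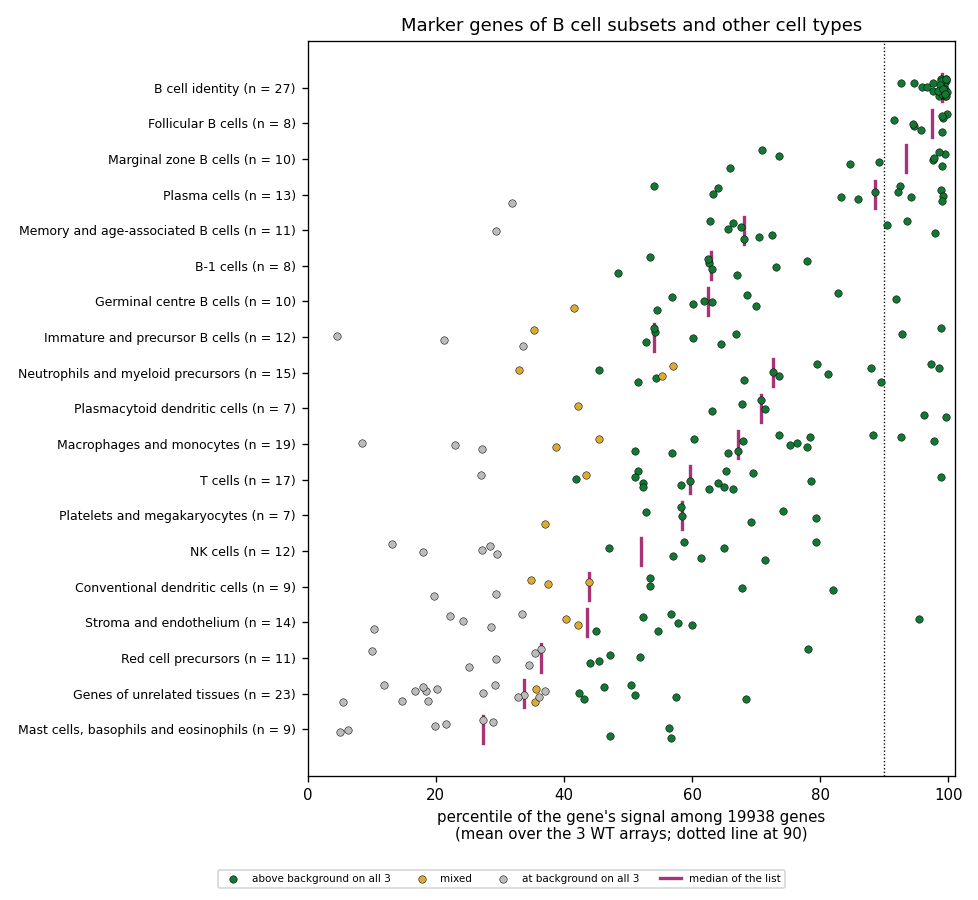
Percentile of each gene's signal among 19938 genes, mean over the 3 WT arrays, for the marker lists of B cell subsets and of other cell types. Points are genes coloured by their place against the background level, bars are list medians, and the dotted line marks the 90th percentile; all 27 identity genes sit to its right, while the medians of the T cell and NK cell lists lie at 59.7 and 52.0.

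The lists for other cells had medians under the 99.1 of the identity list, with single genes standing higher. Their median percentiles ran from 27.3 for mast cells, basophils and eosinophils to 72.6 for neutrophils. These overlapped the lower B cell subset lists, such as precursor B cells at 54.1 and B-1 cells at 62.9. Of 17 T cell genes, 15 (88.2%) were above background and 8 at the stricter level, beside 57.0% and 42.1% of all genes. The one in the top 10% on all 3 arrays was Cd2, an adhesion receptor that mouse B cells also carry, at 12.14, 12.30 and 12.29. The T cell receptor chain gene Cd3e read 9.41, 9.83 and 9.63, Cd3g read 8.60, 8.91 and 8.74, and Cd3d was at background with 6.76, 7.05 and 6.75. Cd4 read 8.78, 9.29 and 9.04, and had the widest range of the list. The genes of the receptor complex were on both sides of the background level. For NK cells 7 of 12 genes (58.3%) were above background and 4 at the stricter level, a share near the 57.0% and under the 42.1% of all genes. Nkg7, a granule protein, read 9.79, 9.44 and 9.82. Klrb1c, the gene of NK1.1, read 6.19, 6.37 and 6.62, and the lowest member, Klre1, read 6.05, 5.89 and 6.33, both at background.

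For macrophages and monocytes 14 of 19 genes (73.7%) were above background, beside 57.0% of all genes, and 2 (10.5%) were in the top 10%, beside 9.08%. Lyz2, a lysozyme of myeloid cells, read 11.44, 11.77 and 12.45, a range of 1.02, and Cd68, a lysosomal protein, read 10.83, 10.83 and 10.81. Genes of resident splenic macrophages differed among themselves, with the complement gene C1qb at 9.81, 9.48 and 9.47 and the receptor gene Vsig4 at 5.67, 5.67 and 5.76. Cd163, a haemoglobin scavenger receptor, read 6.76, 6.81 and 6.44. Of the 9 conventional dendritic cell genes 4 were above background, and Cd209a led them at 9.74, 10.05 and 9.79. The plasmacytoid dendritic cell list had 6 of 7 genes above background. Its top members were Ly6d and Tcf4, which B lineage cells use as well, at 12.96, 13.06 and 13.01, and 11.30, 11.40 and 11.38. Siglech, a lectin that defines these dendritic cells, read 8.95, 9.30 and 9.21.

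Markers of red cells, mast cells and the rarer granulocytes were mostly at background. Of 11 red cell genes 5 were above background and 1, the transferrin receptor Tfrc, at the stricter level, with 9.51, 9.57 and 9.71. Of 9 mast cell, basophil and eosinophil genes 3 were above background, and Fcer1a, the high-affinity IgE receptor chain, read 5.23, 5.27 and 5.38. The platelet list had 6 of 7 genes above background, led by Itgb3 at 9.39, 9.64 and 10.02. For stroma and endothelium 7 of 14 were above background, near the 57.0% of all genes, and 3 passed the stricter level, and Pecam1, an adhesion molecule that leucocytes share with vessels, was in the top 10% at 11.09, 11.33 and 11.27. The collagen gene Col1a1 read 8.67, 8.35 and 8.22.

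Neutrophil granule genes were the list on which the 3 arrays differed most, with a median range of 1.85 beside 0.24 for all genes. Neutrophils store antimicrobial proteins such as lactoferrin and cathelicidin in granules and make their messages as precursors. Of 15 genes, 12 were above background and none was at background on all 3 arrays, and the list's median signal was 8.12, 9.30 and 10.54. The calprotectin gene S100a8 read 9.52, 10.85 and 11.78, and S100a9, its partner, read 9.50, 10.47 and 11.61. Lcn2, an iron-trapping lipocalin, read 11.48, 12.24 and 13.16, and Ngp, a granule protein, read 10.93, 12.21 and 12.78, and both were in the top 10% on all 3 arrays. WT replicate 1 was the lowest and WT replicate 3 the highest for all these genes. This order held for 14 of the 15 genes, beside 14.2% of all genes, and the ranges exceeded 1 for 12 of the 15, beside 97 genes (0.487%) of all. Without WT replicate 1 the median range of the list was 0.92, and without WT replicate 3 it was 0.97. A range over fewer arrays cannot be wider, so the direction of this change was fixed by construction. The exception to the order was Prtn3, a primary granule protease, at 7.58, 7.41 and 7.98.

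Mmp8, Ly6g and Ltf had the widest ranges of the list. Mmp8, a collagenase, read 7.01, 8.46 and 9.92 and was under the background level on WT replicate 1 alone. Ly6g, the surface marker of mature neutrophils, read 7.69, 9.08 and 10.57, and Ltf, lactoferrin, read 8.69, 10.06 and 11.16. Camp, cathelicidin, read 8.70, 9.81 and 10.91. Primary granule genes, switched on earliest in development, lay close to or under the background level on WT replicate 1, as did Ly6g and Mmp8. How this bears on the ranges was not tested. Mpo, myeloperoxidase, read 7.69, 7.94 and 8.81, Elane, neutrophil elastase, read 7.69, 7.82 and 8.42, and Ctsg, the lowest of the list, read 6.82, 6.86 and 7.65, over the background level on WT replicate 3 alone. The identity list over the same arrays had medians of 12.32, 12.50 and 12.45. Of its 27 genes, 19 were lowest on WT replicate 1 and 22 were highest on WT replicate 2. The order of WT replicate 1 lowest and WT replicate 3 highest was found for 1 of the 27. The sample labels name nothing that sets the 3 mice apart, and the source of the difference was not tested.

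**Figure D3:**
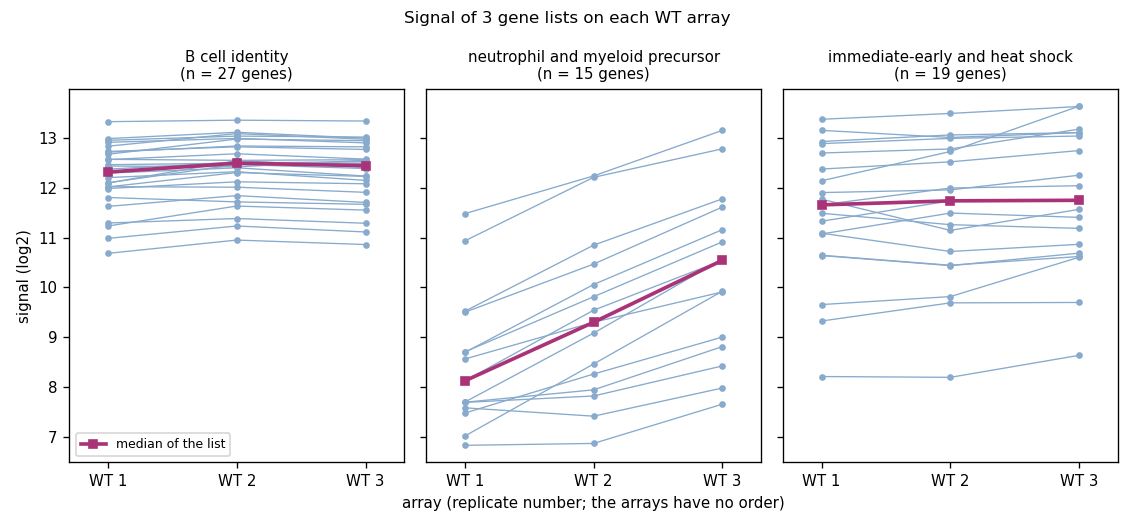
Signal (log2) of each gene on the 3 WT arrays, which have no order, for the B cell identity list (27 genes), the neutrophil and myeloid precursor list (15 genes) and the immediate-early and heat shock list (19 genes); thin lines join the values of 1 gene, the thick line is the list median. The neutrophil median was 8.12, 9.30 and 10.54 and the identity median 12.32, 12.50 and 12.45.

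Several heat shock genes had the order seen in the neutrophil list. Hspa1a, an inducible HSP70 gene, read 12.14, 12.73 and 13.64, Dnajb1, its co-chaperone, read 9.65, 9.81 and 10.61, and Hsp90aa1 read 12.70, 12.78 and 13.18. Hspb1, a small heat shock protein found through its range, read 8.92, 9.54 and 11.43, and Hsph1, an HSP110 gene chosen after its values were seen, read 10.90, 11.40 and 12.52. All 19 immediate-early and heat shock genes were above background and 14 were in the top 10%. Of the 19, 11 were lowest on WT replicate 1 and highest on WT replicate 3. Beside them, 14.2% of all genes and 384 of the 1810 genes in the top 10% on all 3 arrays had this order. Heat shock genes were not counted as a list of their own. The immediate-early genes, which respond within minutes to stimulation, stood high on all 3 arrays, with Dusp1 at 13.38, 13.50 and 13.64, Nr4a1 at 13.16, 13.01 and 13.11, and Fosb at 12.93, 13.06 and 13.11. Egr1 read 10.64, 10.44 and 10.62. Ier3 was the lowest, at 8.21, 8.19 and 8.63.

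The genes with the widest ranges were of several kinds. Aass, a lysine-degrading enzyme, read 6.24, 10.79 and 10.66, the widest range of all (4.55), and Trim12a, a tripartite motif gene, read 10.25, 6.62 and 10.54. Slc15a2, a peptide transporter, read 9.07, 9.43 and 6.85, and Kcnma1, a potassium channel, read 8.06, 10.38 and 6.56. Aass was under the background level on WT replicate 1, Trim12a on WT replicate 2, and Slc15a2 and Kcnma1 on WT replicate 3. Trim12a, like Hspa1a, has close copies in the genome, so its value is uncertain. Kcnma1 had a second probeset that read 6.31 on average, so that its pattern rests on the brighter one. Zfp979, a zinc finger gene, read 4.01, 4.08 and 7.51, and Jhy read 8.81, 6.63 and 6.57. Chil3, a chitinase-like protein of myeloid cells, read 5.80, 7.95 and 8.90, Retnlg, a resistin-like protein of the neutrophil list, read 8.12, 9.54 and 10.54, and Ly6a2 read 9.58, 10.58 and 11.71. Of the 15 widest genes, 6 belonged to the neutrophil list.

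**Figure D4:**
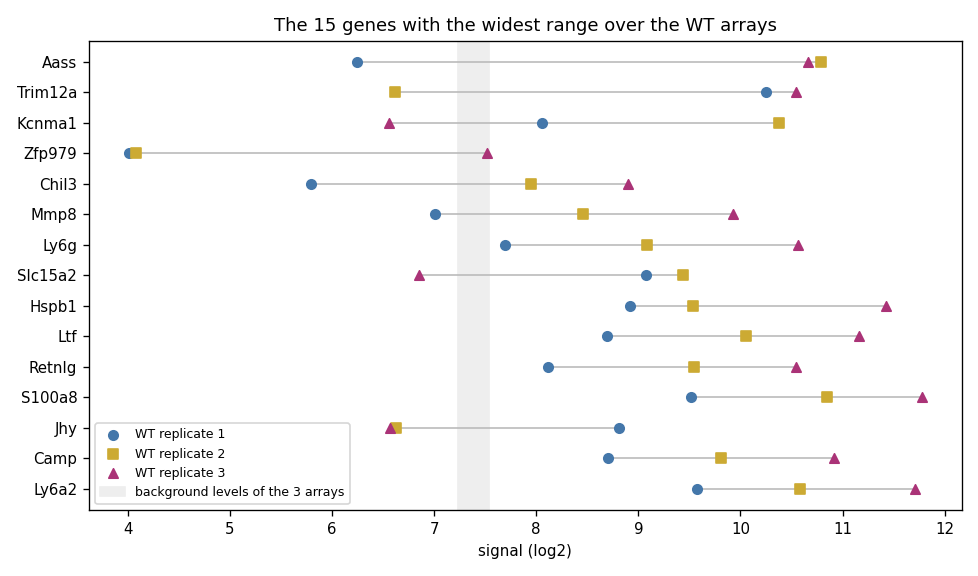
Signal (log2) on each WT array for the 15 genes with the widest range among genes above background on at least 1 array; colours and shapes are the replicates, and the grey band spans the 3 background levels (7.24 to 7.54). Aass is low on WT replicate 1 alone, Trim12a on WT replicate 2 alone and Slc15a2 on WT replicate 3 alone.

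Away from such genes the arrays were close. Across the 19938 genes, Pearson's r was 0.990 between WT replicates 1 and 2, 0.991 between 1 and 3, and 0.995 between 2 and 3, where genes are not independent replicates. The median SD was 0.13 over all genes and 0.12 over those above background. Over all genes it was 0.076 without WT replicate 1 and 0.132 without WT replicate 3. A median SD over 2 arrays tends to be lower than one over 3, so these values are not directly comparable with 0.13. Of the 11358 genes above background, 10654 had a range under 0.5. Of the 75 genes with a range over 1 that were above background on at least 1 array, 45 were lowest on WT replicate 1 and highest on WT replicate 3, 17 were lowest on WT replicate 1 and highest on WT replicate 2, and 13 had other orders. The X-inactivation transcript Xist was at background on all 3 arrays, at 6.15, 6.12 and 5.94, and the Y-linked genes Eif2s3y, Uty and Kdm5d were above it, with Eif2s3y at 10.52, 10.93 and 10.84, Uty at 9.65, 9.94 and 9.90, and Kdm5d at 9.62, 9.99 and 9.85. The 3 arrays were alike in which of these genes exceeded background.

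The homing list had 18 of 20 genes above background and 8 in the top 10%. Cxcr4, the receptor for the chemokine Cxcl12, read 12.97, 13.06 and 13.00, and Gpr183, an oxysterol receptor that positions B cells at follicle edges, read 12.20, 12.26 and 12.04. The integrin chain Itga4 read 11.79, 11.93 and 11.84, and S1pr1, the exit receptor, read 11.01, 11.05 and 11.01. Ccr10, a receptor of mucosal plasma cells, read 7.57, 7.01 and 7.34 and was mixed, and Ccr9 was mixed too, at 7.49, 7.69 and 7.35.

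Fuel use was read through lists of enzymes. Resting B cells are known for low glucose use and for relying on mitochondria, with glycolysis rising on activation. Of 21 glycolysis genes, 18 were above background and 5 were in the top 10%, at a median percentile of 77.9, and the citric acid cycle list had 23 of 23 above background and 7 in the top 10%, at 81.8. Aldoa, an aldolase, read 12.16, 12.09 and 12.12, Ldha, the lactate dehydrogenase chain, read 11.82, 11.69 and 11.74, and Slc2a1, the glucose transporter GLUT1, read 11.81, 11.71 and 11.81. Isoforms of other tissues were at background or near it, with Ldhb, the heart chain, at 7.21, 7.19 and 7.18, and Eno2, the neuronal enolase, mixed at 7.37, 7.35 and 7.27. Hk1, the first hexokinase, read 13.30, 13.38 and 13.42 at its brighter probeset and 8.87 on average at its other one. Its place at the top of the list, and among the 5 genes in the top 10%, thus depends on the probeset. The brighter one is named from an accession that other rows of the annotation also pair with the ribosomal protein gene Rpl17, so its name is in doubt. Slc16a1, a lactate carrier, had the widest range, at 9.36, 9.71 and 9.85.

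In the mitochondrial list, Mdh2, a malate dehydrogenase, read 12.27, 12.08 and 12.12, and Idh3g and Idh3b, chains of the isocitrate dehydrogenase of the cycle, read 11.90, 11.75 and 11.76, and 11.60, 11.52 and 11.48. Cs, citrate synthase, read 11.21, 11.34 and 11.24. The lowest was Pcx, the pyruvate carboxylase that refills the cycle, at 7.59, 7.71 and 7.54, and the widest range belonged to Idh1, the cytosolic enzyme, at 8.01, 8.44 and 8.68. All 9 pentose phosphate genes were above background and none was in the top 10%, with Prps2, which makes the sugar donor of nucleotides, at 10.22, 10.40 and 10.37, and H6pd at 8.76, 8.83 and 8.66. The median SDs of these lists were 0.06 for glycolysis, 0.10 for the cycle and 0.07 for the pentose pathway.

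Lipid genes were above background in both directions of the pathway. All 14 fatty acid oxidation genes were above background, and Cpt1a, the gate for entry of fatty acids into mitochondria, was the one in the top 10%, at 10.52, 11.14 and 10.80, with the widest range of the list. Decr1 was the lowest, at 8.16, 8.22 and 8.05. Of 13 synthesis genes 11 were above background. Scd1, the desaturase that makes oleate, read 13.29, 13.43 and 13.34, at the mean percentile 99.8, and Fasn, the synthase itself, read 9.86, 10.15 and 9.88, at 83.3. Me1, the malic enzyme that supplies NADPH, was at background with 6.79, 6.81 and 6.98. Cd36, the fatty acid receptor of the marginal zone list, read 10.39, 10.38 and 10.66.

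All 18 amino acid and one-carbon genes were above background and 8 were in the top 10%. The transporters Slc38a2 and Slc3a2 read 12.61, 12.71 and 12.83, and 12.59, 12.53 and 12.57, and the glutamine carrier Slc1a5 had the widest range, at 11.34, 11.45 and 12.03. Phgdh, the first enzyme of serine synthesis, read 9.15, 9.12 and 9.09. Shmt1 was the lowest, at 7.89, 7.97 and 7.80. Myc, the growth regulator, read 13.40, 13.24 and 13.20, the top of a list of 16 nutrient and growth genes of which 14 were above background. Txnip, which restrains glucose uptake, read 12.35, 12.41 and 12.36. The relative Mycn was at background, at 7.35, 6.73 and 7.14.

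Cell cycle genes were present at middle places. Of 24 proliferation genes, 23 (95.8%) were above background and 21 at the stricter level, beside 57.0% and 42.1% of all genes. Their median percentile was 71.7, and 1 (4.17%) was in the top 10%, beside 9.08% of all genes. That gene was Pcna, the replication clamp, at 11.97, 12.19 and 12.03. Mki67, the antigen of cycling cells, read 10.33, 10.18 and 10.02, and Mcm7, a helicase subunit, read 10.04, 10.06 and 10.15. Ccne2, a cyclin of S phase entry, was the lowest and the most variable, at 7.12, 7.91 and 7.70. The quiescence list had all 12 genes above background and 6 in the top 10%, at a median percentile of 91.7. Btg1, an antiproliferative gene of resting lymphocytes, read 13.57, 13.62 and 13.50, Btg2 read 12.29, 12.33 and 12.54, and Foxo1 read 11.58, 11.77 and 11.49. Among 13 clock genes, all above background, Per1 read 11.98, 12.22 and 12.21 and Ciart read 11.58, 11.79 and 11.99, with Per3 the lowest at 7.98, 7.92 and 8.07.

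**Figure D5:**
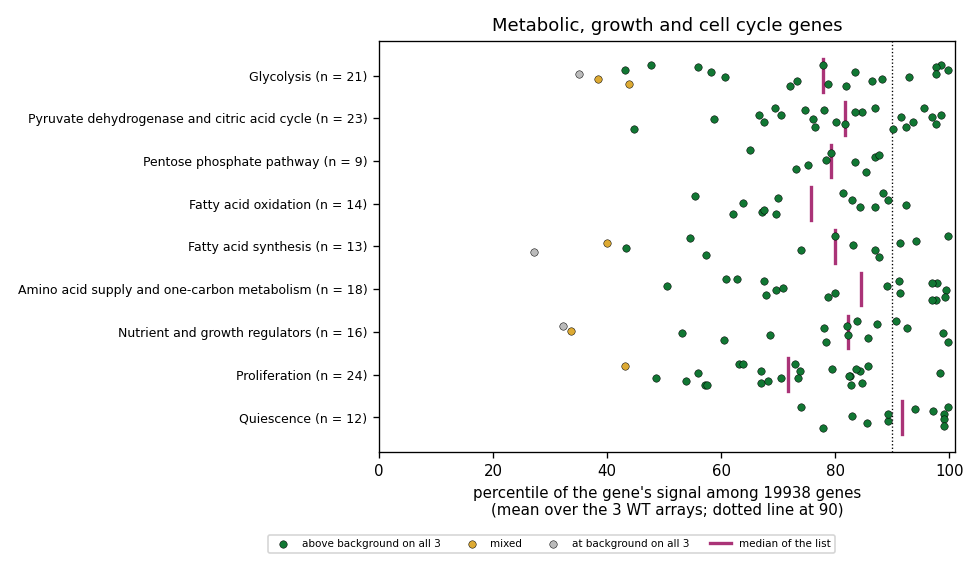
Percentile of each gene's signal among 19938 genes, mean over the 3 WT arrays, for metabolic, growth and cell cycle lists. Points are genes coloured by their place against the background level, bars are list medians, from 71.7 for proliferation to 91.7 for quiescence, and the dotted line marks the 90th percentile.

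The very top of the arrays was held by housekeeping and non-coding RNA beside the MHC genes. Rn7sk, the 7SK RNA that restrains transcription elongation, read 14.52, 14.67 and 14.61, and Rpph1, the RNA of RNase P, read 14.49, 14.53 and 14.49. Actb, beta-actin, read 14.33, 14.35 and 14.38, and Tpt1, a translation-associated protein, read 13.92, 14.11 and 14.08. The ribosomal protein genes Rpl21, Rpl10, Rpl28, Rps6, Rps15 and Rpl19 had means from 13.80 to 13.97, and the small nucleolar RNA Snord49b had 13.89. Among the 100 highest means, 23 were ribosomal protein genes of 70 measured, and 8 were small nucleolar RNA genes of 52. A further 5 were MHC class II genes or Cd74 of 8, and 3 were kappa variable segments of 8. The B cell identity list gave 5 of its 27 genes, and the immediate-early and heat shock list 5 of its 19. Many ribosomal protein genes have near-identical copies, so their values are uncertain. The second place, Baiap2l1, read 14.46, 14.61 and 14.56 at a probeset whose RefSeq accessions could not be matched to that gene here. The probeset that does carry the gene's RefSeq accession read 7.73 on average, so the name of the bright one is in doubt.

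Small regulatory RNA genes could be read only as their primary or precursor transcripts, not as mature molecules. Of 300 measured miRNA genes, 98 were above background, 17 were mixed and 185 were at background, and 5 were in the top 10%, where the shares of all genes were 57.0% above background, 36.5% at background and 9.08% in the top 10%. The miRNA genes named here were chosen after their values were seen, for known roles in lymphocytes. Mir142, which is found across blood cells, read 10.09, 10.46 and 10.33, and Mir155, which acts in activated B cells, read 9.62, 9.36 and 9.60. Mir23a and Mir27a, which lie within 1 cluster on chromosome 8, read 10.55, 10.86 and 10.75, and 10.61, 10.89 and 11.02. Mir181a-1, known from early lymphocyte stages, was at background, at 4.36, 4.55 and 4.24. Others looked at were Mir150 at 8.32, 8.06 and 8.02 and Mir24-2 at 9.65, 9.61 and 9.60, both above background. Mir17 was mixed, at 7.52, 7.82 and 7.67, and Mir181b-1 was at background, at 6.64, 6.76 and 6.64. A mature product of each of Mir142, Mir155, Mir23a, Mir27a and Mir181a-1 is printed from RefSeq (GRCm38.p6) with the seed, bases 2 to 8, in capitals. No seed is shared among the 5, and each gives the letters by which its targets would be sought.
miR-142a-3p: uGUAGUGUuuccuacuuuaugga
miR-155-5p: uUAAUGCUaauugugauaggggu
miR-23a-3p: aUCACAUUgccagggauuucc
miR-27a-3p: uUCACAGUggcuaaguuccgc
miR-181a-5p: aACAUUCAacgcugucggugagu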

How the data were processed

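Splenic B cells had been selected by the authors with anti-B220 and magnetic beads, and their RNA prepared with an Ambion WT Expression kit and run on Mouse Gene 1.0 ST arrays. The deposited values are log2 signals, 1 per probeset, made by the authors with RMA in Partek per the submitters' processing notes (versions not stated). The number of arrays limits the precision. From these values the 3 WT columns were taken as labelled, in Python 3.11.15 with pandas 2.3.3 and numpy 2.4.6. The array medians were 7.68 to 7.77 and the SDs over probesets 1.99 to 2.07, so the columns did not share 1 distribution, as RMA with its usual quantile normalization would give; the step used is not given in the sources used here, and each spread over arrays includes the offset. Probesets were named from the platform annotation, 1621 with several symbols and 5443 with none were left out, and for the 999 genes with several probesets the brightest by WT mean was used; these lay more than 2 apart for 183 genes. Nothing was tested, and nothing says whether the samples were processed separately after selection. The gene lists (37, with 563 genes, of which 52 were not analysed here) and the genes named were chosen with earlier results of these data known. Named were 6 markers, the 15 highest means, the 15 widest ranges, per list the 4 highest, the lowest and the widest, members of other cell types' lists in the top 10%, and constant region and sex-linked genes, where space allowed. The functions used were tested on simulated data. Alternatives tried were 2 other background levels, 1 array left out, other rules for probesets, and other scalings.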

Additional observations from a re-analysis of the deposited data

How the results depend on the processing

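The count of genes above background (11358) stayed within 1.5 times of that value under all 10 alternatives run for it, from 7943 with the 95th percentile of the genes of unrelated tissues to 12501 with every probeset as its own row. The median SD over all genes, 0.127, was 0.0761 to 0.132 with 1 array left out, the lowest without WT replicate 1. Those values rest on 2 arrays, where a median SD tends to be lower than over 3. It was 0.107 after quantile normalization of the 3 WT arrays. The median range of the neutrophil list, 1.85, was 0.915 to 1.85 with 1 array left out, at 0.915 without WT replicate 1 and 0.969 without WT replicate 3, and 1.75 after quantile normalization. Leaving out an array cannot widen a range, so that change could go only downwards. The B cell identity list's median percentile, 99.1, moved to 99.2 with the mean of a gene's probesets and to 98.3 when genes above background alone were ranked. The fewer genes ranked lower every percentile by construction. Of 333 counts of list members above background, 313 stayed within 1.5 times, and the T cell list moved the most, by 7 members. Of 296 list percentiles, 246 moved by less than the SD over the arrays, and outside the ranking of fewer genes the largest shift was 7.05, for the neutrophil list without WT replicate 1. No paired analysis was possible because a single group was described.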
